A study of Mus musculus with 6 samples.

Results

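The genes described here encode the subunits of oxidative phosphorylation, the 5 protein complexes of the inner mitochondrial membrane that oxidise NADH and succinate and make ATP. They were taken from the deposited table by position and by name. Members were the rows on the mitochondrial chromosome and the rows whose symbol began with Nduf and a subunit letter and number, Sdha to Sdhd, Uqcr, Cox4 to Cox8, or Atp5. The rule found 101 of 34745 genes, 13 encoded on the mitochondrial chromosome and 88 in the nucleus. Of the nuclear members, 80 were subunits and 8 were not. The 8 were the pseudogenes Atp5l-ps1, Atp5l-ps2, Atp5l2-ps and Atp5k-ps2, and Atp5s, Atp5sl, Cox7a2l and Ndufa4l2, whose names match while their products are not standing subunits. RNA came from primary wild-type (WT) mouse renal fibroblasts, the cells that lay down kidney matrix, grown from digested tissue. All were left to attach for 6 h. In 3 libraries the fibroblasts were cultured with no other cells, and these are called fibroblasts alone. Whether these lone cultures had an empty insert or the same further culture time was not given. In the other 3 libraries they were cultured for 24 h under a 0.4 μm insert that held Th17 cells, helper T cells induced in culture from CD4+ T cells to make interleukin-17. Only the fibroblasts below the insert were collected. The study's methods name Balb/c as the strain of its mice, without tying it to these cultures. Neither the age of the mice nor the origin of replicate libraries (animals, cultures or wells) was given in the sources used here, so errors and p-values describe the spread between these libraries.

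Electrons enter the respiratory chain at complex I (NADH dehydrogenase) or complex II (succinate dehydrogenase), pass through coenzyme Q to complex III (cytochrome bc1) and through cytochrome c to complex IV (cytochrome c oxidase), and the proton gradient built on the way drives complex V (ATP synthase). Complex II is encoded wholly in the nucleus, whereas the other complexes combine a few core subunits made on mitochondrial ribosomes with many subunits imported from the cytosol. The mitochondrial genes are transcribed from both strands of the circular chromosome as long precursors, which are cut apart mostly at the tRNAs that lie between the mRNAs. Nuclear subunit genes are transcribed one by one, with regulators such as NRF1, GABP and the coactivators of the PGC-1 family. Fibroblasts of the kidney carry fewer mitochondria than tubule cells, which depend on oxidative phosphorylation for transport.

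Library totals ranged from 12050529 to 13209581 counts. Fibroblast markers (12 genes, among them Col1a1, Vim, Dcn and Pdgfrb) summed to 36061 to 37920.1 CPM (counts scaled to a common library total with TMM factors) alone and 15959 to 17913 CPM with Th17 cells, with 9 of the 12 lower in coculture, 1 higher (Dcn, log2 fold change 1.5) and 2 not called, beside 20% of all genes lower and 17.1% higher by the test described below. T cell markers (19 genes) summed to 8.77 to 10.3 CPM alone and 5.03 to 6.02 CPM with Th17 cells, with Cd3d, Cd8a, Cd2, Cd5, Il17a, Il17f and Ccr6 at 0 counts in every library. Macrophage markers (14 genes) summed to 59.2 to 62.6 CPM alone and 20 to 21.1 CPM in coculture. Endothelial markers (8 genes) summed to 9.95 to 10.2 and 5.17 to 5.89 CPM, and tubular epithelial markers (10 genes) to 6.59 to 8.69 and 5.65 to 6.05 CPM, in the same order. The part of these cells in the results below was not tested. One library stood apart in a way that touches these genes. The nuclear members tested had a median length of 2153 bases, against 5400 over all tested genes with a length. In cocultured replicate 3 the genes with a length under 1000 bases lay a median of 0.19 above the other 2 cocultured libraries on the log2 scale, and those over 4000 bases lay 0.04 below. Of the 81 nuclear members tested, 70 were higher in that library than the mean of the other 2, by a median of 0.23. The part of gene length in this was not tested. Results that rest on cocultured replicate 3 are therefore given with and without it.

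The 13 mitochondrial members were the complete set of protein-coding genes of that chromosome. Neighbouring genes meet or overlap there, so that a fragment at the border can belong to either, and the stretches concerned are shown 5′ to 3′ on the plus strand of GRCm38 with the bases shared by both genes in capitals. The sequences were read from the GENCODE transcripts of that build.
mt-Atp8 and mt-Atp6, MT:7915-7981: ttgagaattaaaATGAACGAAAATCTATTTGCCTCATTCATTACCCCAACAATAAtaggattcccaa
mt-Atp6 and mt-Co3, MT:8595-8619: tgataatacataAtgacccaccaaa
mt-Nd4l and mt-Nd4, MT:10155-10185: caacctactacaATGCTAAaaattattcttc
mt-Nd5 and mt-Nd6, MT:13540-13577: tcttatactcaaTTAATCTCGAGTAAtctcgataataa
The first pair shares 43 bases, the second 1, the third 7 and the last 14. In the first 3 pairs both genes lie on the plus strand. Genes of the last pair face each other, with mt-Nd6 as the single mRNA read from the minus strand. The table held no row for the 2 rRNAs or 22 tRNAs of the chromosome. Nuclear copies of mitochondrial DNA carry similar sequence, and how fragments that fit several places were assigned was not stated, which leaves the share of such fragments unknown.

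Coculture with Th17 cells was accompanied by a larger share of mitochondrial mRNA in the fibroblast libraries. The 13 mitochondrial mRNAs took 3.42%, 3.15% and 3.19% of all counts in fibroblasts alone and 4.13%, 4.2% and 4.55% with Th17 cells. The 95% Wilson interval of each share, which covers counting error only, reached at most 0.0114 percentage points to either side, so the libraries of a group differed by more than counting error. Every cocultured library lay above every lone one. The quasi-likelihood test of edgeR, adjusted over 13088 genes, called 12 of the 13 mRNAs higher in coculture and 0 lower at an adjusted p below 0.05; below, each log2 fold change is given ± SE with that adjusted p. Among all genes tested 17.1% were higher and 20% lower by that rule, 37.1% in all. Groups that did not overlap, as given for single genes below, were found for 50.4% of all genes tested, 24.3% higher and 26.1% lower. The count of 0 lower was also given by DESeq2 and limma, whereas 1 gene, mt-Co3, was lower at an unadjusted p below 0.05. The median log2 fold change was 0.41 over the 13 mRNAs and 0.00 over all genes tested. Without cocultured replicate 3, 9 mRNAs were higher, mt-Co3 was lower, and the median was 0.32, and with any 1 library left out the number higher was 8 to 12, with 8 without lone replicate 2 or 3. In bulk RNA, more mitochondrial transcript per cell, less of other mRNA and a larger share of cells rich in mitochondria cannot be told apart. The part of RNA quality was not tested.

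**Figure D1:**
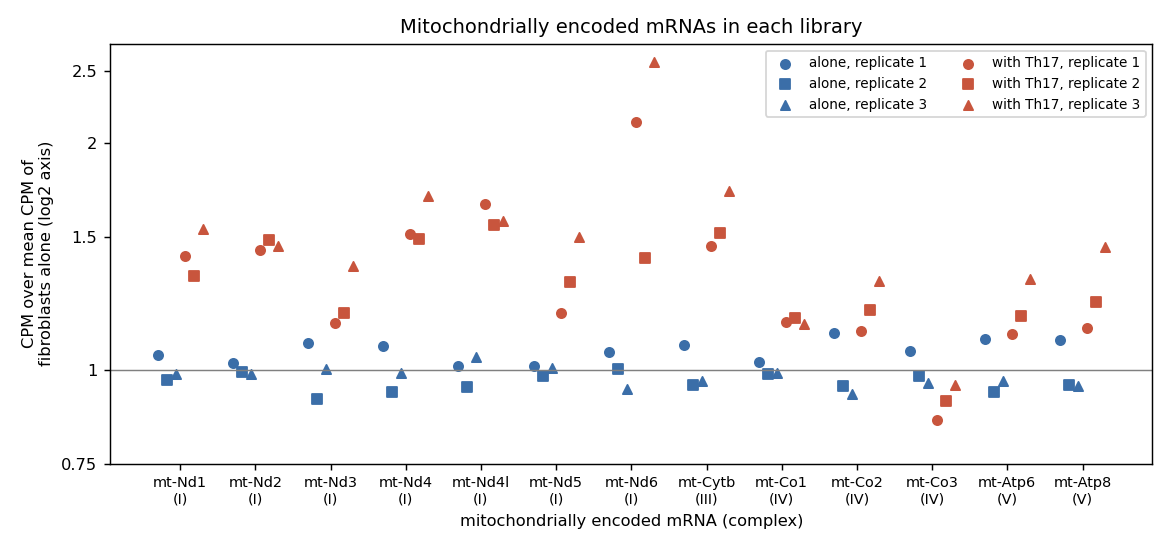
CPM of each mitochondrially encoded mRNA in each library, divided by the mean of the 3 libraries of fibroblasts alone (log2 axis), with one point per library and the complex in brackets. Cocultured libraries lie above the lone ones for 12 genes and below them for mt-Co3. Of all genes tested, 24.3% lie above and 26.1% below in this way.

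All 7 mitochondrial subunits of complex I, which form its proton-pumping membrane arm, rose in coculture. The mRNA of mt-Nd1, the subunit at the coenzyme Q site, measured 2259.5, 2092 and 2130.4 CPM alone and 3061, 2879 and 3322 CPM with Th17 cells (edgeR log2 fold change 0.51 ± 0.065, adjusted p = 0.000269). For mt-Nd2, a pump subunit, values were 1199, 1169.6 and 1159 CPM and 1697, 1748 and 1717 CPM in the same order (edgeR log2 fold change 0.55 ± 0.048, adjusted p = 2.67e-05). In neither gene did the groups overlap, and lone libraries of mt-Nd2 lay within 40 CPM of each other. The overlapping pair mt-Nd4l and mt-Nd4, which is kept together on one mRNA, rose by similar amounts. Lone libraries held 2651, 2301 and 2443 CPM of mt-Nd4 and cocultured libraries 3735, 3677 and 4193 CPM (edgeR log2 fold change 0.65 ± 0.073, adjusted p = 0.000126). For mt-Nd4l the values were 434, 406 and 445 and 711, 668 and 675 CPM (edgeR log2 fold change 0.68 ± 0.059, adjusted p = 2.37e-05). Its counts stood at 16.4 to 18.2 per 100 counts of mt-Nd4 alone and 16.1 to 19 in coculture, ranges that overlap.

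Values of mt-Nd5, another pump subunit, were 2062, 2002 and 2049 CPM alone and 2423, 2669 and 3056 CPM in coculture (edgeR log2 fold change 0.41 ± 0.08, adjusted p = 0.00327), with the highest of all in cocultured replicate 3. On the opposite strand, mt-Nd6 was the scarcest of the 13 mRNAs, at 28.7 ± 1.51 FPKM (fragments scaled to gene length and library total, mean ± SD, n = 3) against 1093 ± 17.4 FPKM for mt-Nd5. Its CPM values were 16.1, 15.2 and 14.4 alone and 32.6, 21.4 and 39.1 with Th17 cells (edgeR log2 fold change 1.03 ± 0.20, adjusted p = 0.00303), the highest fold change of the 13. The cocultured libraries of mt-Nd6 spread widely, with replicate 2 close to the lone range, while the lone libraries lay within 2 CPM of each other. Whether the counting read strand is not known, so antisense fragments of the long plus-strand precursor cannot be told apart from mt-Nd6 itself. The small subunit mt-Nd3 had 65.5, 55.3 and 60.5 CPM alone and 69.8, 71.9 and 83.1 CPM in coculture (edgeR log2 fold change 0.31 ± 0.094, adjusted p = 0.0289). That call was lost without lone replicate 2 or 3 and without cocultured replicate 3.

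The single mitochondrial gene of complex III, mt-Cytb, encodes cytochrome b, which binds coenzyme Q on both sides of the membrane. It had 2998, 2651 and 2686 CPM alone and 4062, 4226 and 4805 CPM with Th17 cells, with no overlap (edgeR log2 fold change 0.65 ± 0.077, adjusted p = 0.00018). For the 2 mitochondrial subunits of ATP synthase changes were smaller. The proton channel subunit mt-Atp6 had 3643, 3098 and 3197 CPM alone and 3695, 3906 and 4371 CPM in coculture (edgeR log2 fold change 0.27 ± 0.082, adjusted p = 0.0292). The membrane subunit mt-Atp8, which shares the 43 bases shown above with mt-Atp6, had 1014, 882 and 878 CPM and 1050.1, 1139 and 1346 CPM (edgeR log2 fold change 0.35 ± 0.097, adjusted p = 0.0194). Lone replicate 1 came close to cocultured replicate 1 in both genes. Neither call held without lone replicate 2 or lone replicate 3, and that of mt-Atp6 was also lost without cocultured replicate 2 or 3.

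The 3 mitochondrial subunits of cytochrome c oxidase did not move alike. The mRNA of mt-Co1, which holds the haem centres, was the most abundant of all members per length, at 7579 ± 133 FPKM alone and 9180.5 ± 24.2 FPKM in coculture (mean ± SD, n = 3). Its CPM values were 12242, 11819 and 11851 alone and 13852, 14009.8 and 13766 with Th17 cells (edgeR log2 fold change 0.21 ± 0.045, adjusted p = 0.00551), close together within each group. For mt-Co2, the copper subunit that accepts electrons from cytochrome c, values were 3706, 3150.3 and 3069 and 3725, 3976 and 4344 CPM (edgeR log2 fold change 0.28 ± 0.085, adjusted p = 0.0292). Lone replicate 1 of mt-Co2 nearly reached cocultured replicate 1, and the call was lost without lone replicate 2 or 3, without cocultured replicate 2 or 3, and with a replicate block.

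The third core subunit, mt-Co3, was the single mitochondrial mRNA that did not rise. Libraries of fibroblasts alone held 2772, 2565 and 2514 CPM and cocultured libraries 2245, 2376 and 2494 CPM (edgeR log2 fold change −0.14 ± 0.061, adjusted p = 0.102). All cocultured values were below all lone values, although the gap between cocultured replicate 3 and lone replicate 3 was small. Without cocultured replicate 3 the log2 fold change was −0.18 (edgeR adjusted p = 0.0293), past the threshold. Of all mitochondrial mRNA counts, mt-Co3 took 7.87% ± 0.12 alone and 5.65% ± 0.0899 with Th17 cells (SD, n = 3). It follows mt-Atp6 with no tRNA between them, as the stretch MT:8595-8619 shows. Per 100 counts of mt-Atp6 there were 76.1, 82.8 and 78.6 counts of mt-Co3 alone and 60.8, 60.8 and 57.1 in coculture. By contrast, mt-Atp8 stood at 27.5 to 28.5 counts per 100 of mt-Atp6 alone and 28.4 to 30.8 in coculture. These ratios do not depend on how libraries were scaled. Among the other shares, that of mt-Co1 went from 36% ± 0.97 to 33.1% ± 1.72, that of mt-Nd4 from 7.41% ± 0.228 to 9.21% ± 0.301, and that of mt-Cytb from 8.35% ± 0.175 to 10.4% ± 0.427.

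For the nuclear members, with the 8 that were not subunits included, the shift was smaller. Their summed counts took 0.436%, 0.456% and 0.457% of all counts alone and 0.458%, 0.487% and 0.549% with Th17 cells. Cocultured libraries again lay above lone ones, but cocultured replicate 1 and lone replicate 3 were within counting error of each other. On the TMM scale the sums overlapped, at 4469 to 4668 CPM alone and 4479 to 5337 CPM in coculture. The most abundant nuclear member, Atp5b, made up a mean of 848 CPM of the sum alone and 997 CPM in coculture, and its counts are uncertain, as given below. Of the 88 nuclear members, 81 passed the filter on low counts. Those left out were Cox7a1, Cox7b2, Cox8b, Cox8c, Atp5k-ps2, Atp5l-ps1 and Atp5l-ps2, and of these Cox7b2, Cox8b, Cox8c and Atp5l-ps2 had 0 counts in every library. The 81 had a median log2 fold change of 0.04, with 46 above 0 and 35 below. An adjusted p below 0.05 was reached by 5 in the higher and 6 in the lower direction, 13.6% of those tested against 37.1% of all genes. Without cocultured replicate 3, the calls were 3 higher and 9 lower and the median −0.02, and higher calls numbered 2 without lone replicate 1 or 2 and 3 without lone replicate 3. Groups did not overlap for 13 genes that were higher and 9 that were lower, 27.2% of the 81 against 50.4% of all genes tested. With the study's further threshold of a 2-fold change, which 11.6% of all genes passed (3.87% higher and 7.78% lower), 0 nuclear members were higher and Ndufa4l2, Cox4i2 and Cox6a2 were lower, and mt-Nd6 was the 1 mitochondrial member that passed. Per length, nuclear members ranged from 0.737 FPKM for Cox6b2 to 144 FPKM for Cox8a in fibroblasts alone, with a median of 14.2 FPKM, and the mitochondrial mRNAs had a median of 2209 FPKM.

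**Figure D2:**
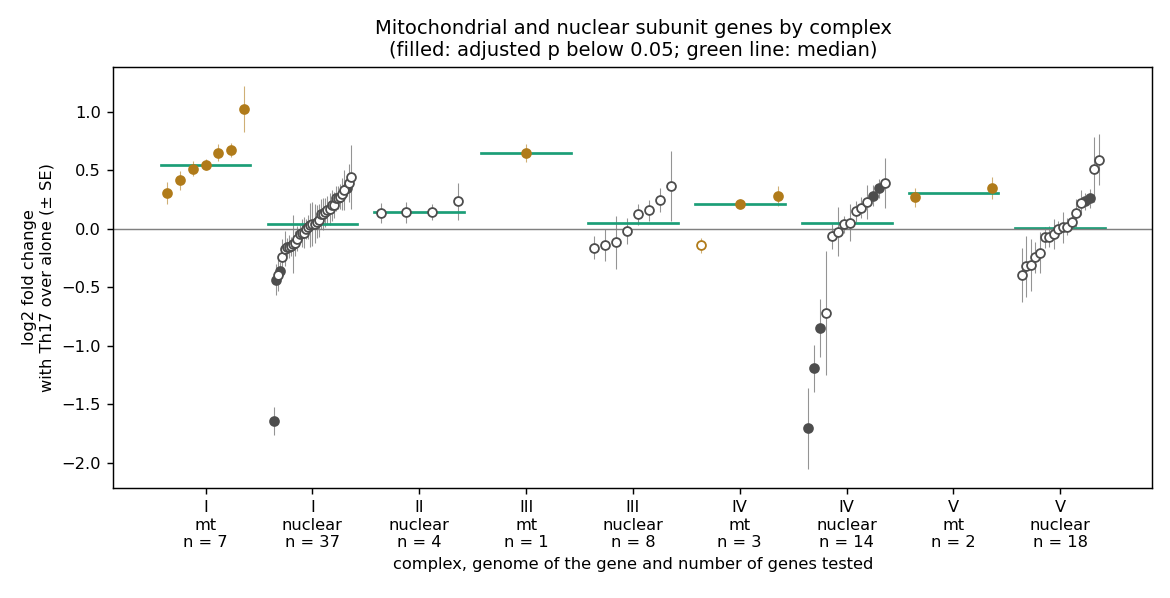
Log2 fold change, with Th17 cells over alone, of every member tested (points, ± SE), by complex and genome, with filled points at an adjusted p below 0.05 and a green line at the median. Medians of the mitochondrial genes lie between 0.21 and 0.65 and those of the nuclear genes between 0.00 and 0.14.

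By complex, the nuclear genes divided as follows. In complex I, 1 of 37 genes tested was higher and 3 were lower, with a median log2 fold change of 0.04. Genes were placed by name, so that the complex I set, here and in the ratio below, held Ndufa4 as well as Ndufa4l2, which was 1 of the 3 lower genes in the set. Complex II had 4 genes with values between 0.14 and 0.24, of which 0 passed (0 also at an unadjusted p and with DESeq2, 1 with limma). In complex III, 0 of 8 passed, with values from −0.16 to 0.36 (1 at an unadjusted p, 0 with DESeq2 and 1 with limma). Complex IV had 2 higher and 3 lower of 14, and complex V had 2 higher and 0 lower of 18. The shares called were 10.8% in complex I, 0% in complexes II and III, 35.7% in complex IV and 11.1% in complex V. Among all genes tested 37.1% were called, so only the share of complex IV was near that of all genes. Without cocultured replicate 3 the higher and lower calls were 1 and 4 in complex I, 1 and 0 in complex II, 0 and 2 in complex III, 1 and 2 in complex IV and 0 and 1 in complex V. Over all genes, the same fit called 2387 higher and 2701 lower. Mitochondrial genes of the same complexes had medians of 0.55 for complex I, 0.65 for complex III, 0.21 for complex IV and 0.31 for complex V.

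Among nuclear subunits that rose, Ndufs1 (ENSMUSG00000025968, chromosome 1, 63143596 to 63176833, - strand), the largest subunit of complex I and a carrier of iron-sulfur clusters, had 87.1, 84.9 and 79.1 CPM alone and 110.3, 108 and 102 CPM with Th17 cells (edgeR log2 fold change 0.35 ± 0.068, adjusted p = 0.00326). Cox7b (ENSMUSG00000031231, chromosome X, 106015700 to 106022450, + strand), a small subunit of cytochrome c oxidase, had 46.3, 40 and 44 CPM and 55.1, 55.6 and 54.9 CPM (edgeR log2 fold change 0.34 ± 0.078, adjusted p = 0.00762). Neither gene's groups overlapped, both calls held under every alternative, and Cox7b overlaps no other annotated gene. Ndufs1 overlaps 3 genes on the opposite strand. The other 3 that rose were called less firmly. Cox5a, a matrix-side subunit of cytochrome c oxidase, had 39.9, 38.7 and 38.7 and 47.3, 42.6 and 52.9 CPM (edgeR log2 fold change 0.28 ± 0.092, adjusted p = 0.0378). Atp5b, the catalytic beta subunit of ATP synthase, had 793, 886 and 864 and 918, 998 and 1075 CPM (edgeR log2 fold change 0.23 ± 0.072, adjusted p = 0.0315). Its counts are uncertain because it overlaps 3 genes on its own strand. Atp5d, the delta subunit of the central stalk, had 70.5, 72 and 76 and 81, 84.5 and 96.4 CPM (edgeR log2 fold change 0.26 ± 0.082, adjusted p = 0.0331). None of these last 3 calls held when lone replicate 1, 2 or 3, or cocultured replicate 3, was left out. Of the called nuclear genes here and below, Cox5a, Atp5d, Ndufs6, Ndufa4l2 and Cox6a2 each overlap 1 gene on the opposite strand. What such overlaps add to the counts is unknown, because use of strand was not given.

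Of the 2 complex I subunits that fell, Ndufv3 (ENSMUSG00000024038, chromosome 17, 31520115 to 31531326, + strand), an accessory subunit of the NADH-binding module, had 39.5, 39.3 and 42.8 CPM alone and 30.9, 32.4 and 31.1 CPM in coculture (edgeR log2 fold change −0.36 ± 0.079, adjusted p = 0.00583). Ndufs6, an accessory subunit that binds zinc, had 9.23, 10.3 and 9.38 and 6.62, 7.7 and 7.07 CPM (edgeR log2 fold change −0.43 ± 0.13, adjusted p = 0.0308). The groups were separate in both genes. Ndufv3 was called under every alternative, whereas Ndufs6 was not called with DESeq2 (log2 fold change −0.43, adjusted p = 0.0983), with a replicate block, with library size only, and in 5 of the 6 fits that left out a library. The flavoprotein partner genes Ndufv1 and Ndufv2, which hold the NADH site and a cluster beside it, had log2 fold changes of 0.02 (adjusted p = 0.92) and −0.08 (adjusted p = 0.58) by edgeR.

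The deepest falls were in alternative forms of subunits, genes used in particular tissues or in low oxygen in place of a common form. The common forms of the same subunits did not pass the test, although Cox4i1 without cocultured replicate 1 and Cox6b1 with an offset for gene length were called higher. Ndufa4l2 (ENSMUSG00000040280, chromosome 10, 127514939 to 127517152, + strand), a paralogue of Ndufa4 known as a target of hypoxia-inducible factors, had 91.1, 106 and 94.3 CPM alone and 30.6, 36.4 and 26.4 CPM with Th17 cells (edgeR log2 fold change −1.64 ± 0.12, adjusted p = 7.46e-06). Its relative Ndufa4, a subunit now placed in cytochrome c oxidase, had 38, 37.9 and 40.7 and 37, 37 and 39 CPM, with overlapping groups (edgeR log2 fold change −0.05 ± 0.076, adjusted p = 0.676). Per length, fibroblasts alone held more Ndufa4l2 than Ndufa4, 99 ± 7.95 against 14.2 ± 0.611 FPKM (mean ± SD, n = 3). Cocultured fibroblasts held 33.1 ± 5.16 against 14.4 ± 0.532 FPKM. By counts, Ndufa4l2 stood at 232 to 279 per 100 of Ndufa4 alone but at 67.6 to 98.5 in coculture. The order by FPKM in coculture therefore rests on the lengths that FPKM implies, 960 bases for Ndufa4l2 and 2680 for Ndufa4.

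Cox4i2 (ENSMUSG00000009876, chromosome 2, 152754173 to 152765037, + strand), the form of subunit IV linked to low oxygen and to lung, had 81, 84 and 96 counts alone and 33, 45 and 42 counts in coculture (edgeR log2 fold change −1.19 ± 0.20, adjusted p = 0.00139). The common form Cox4i1 was uneven, at 96.6, 87.7 and 88.8 CPM alone and 73.2, 142 and 143 CPM in coculture (edgeR log2 fold change 0.39 ± 0.21, adjusted p = 0.191). Cocultured replicate 1 lay below every lone library of Cox4i1 while replicates 2 and 3 lay above them, and without replicate 1 its log2 fold change was 0.65 (edgeR adjusted p = 0.000346). Cox4i1 overlaps a gene on each strand, so its counts are uncertain. Cox4i2 stood at 6.51 to 9.13 counts per 100 counts of Cox4i1 alone and 2.24 to 3.35 in coculture.

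Cox6a2 (ENSMUSG00000030785, chromosome 7, 128205435 to 128206387, - strand), the heart and muscle form of subunit VIa, had 29, 36 and 26 counts alone and 6, 14 and 9 counts with Th17 cells (edgeR log2 fold change −1.71 ± 0.35, adjusted p = 0.0042). The liver-type form Cox6a1 had 75.3, 85.1 and 85.9 CPM and 83.6, 82.5 and 87 CPM (edgeR log2 fold change 0.04 ± 0.074, adjusted p = 0.71). Cox6b2, the testis form of subunit VIb, had 25, 29 and 25 and 16, 15 and 15 counts in the same order (edgeR log2 fold change −0.85 ± 0.25, adjusted p = 0.0254), while the common form Cox6b1 had 62.6, 62 and 60.7 and 63.3, 67.9 and 78.9 CPM (edgeR log2 fold change 0.18 ± 0.09, adjusted p = 0.147). All lone libraries of Cox6a2 and Cox6b2 lay above all cocultured ones, but both genes were near the lowest level that was tested. The Cox6b2 call was lost with any library left out and with DESeq2, and Cox6a2 did not reach 10 counts in every library. Another muscle form, Cox7a1, had between 0 and 4 counts per library and was not tested. The common forms Cox7a2 and Cox8a had log2 fold changes of 0.05 (adjusted p = 0.829) and 0.15 (adjusted p = 0.224), and Cox7a2l, a factor that joins complexes III and IV into supercomplexes, had −0.06 (adjusted p = 0.682).

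**Figure D3:**
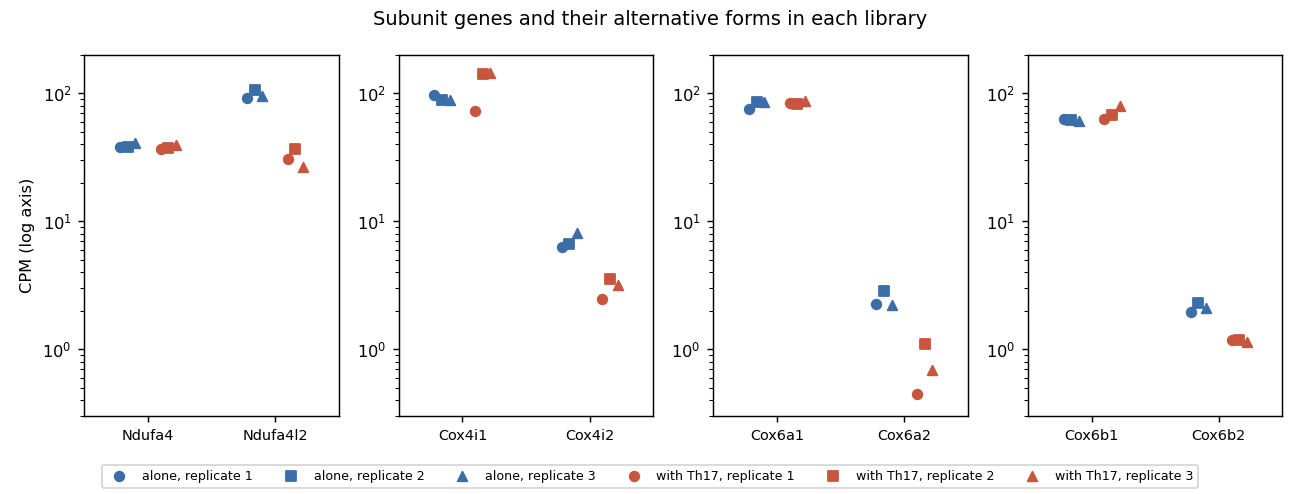
CPM (log axis) of 4 common subunit genes and their alternative forms in each library, blue for fibroblasts alone and red for fibroblasts with Th17 cells. The alternative form, on the right of each panel, is lower in every cocultured library than in every lone one, as are 26.1% of all genes tested. The common form does not pass the test.

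The subunit VIb genes are shown by their promoters, from 250 bases before to 50 after the start of the gene, read from RefSeq on GRCm38.p6, because 1 of the pair passed the test and the other did not. The Cox6b2 call was lost with any library left out, as given above, and a link between motifs and calls was not tested. Capitals mark a match to an ETS-type motif.
Cox6b1, chr7:30626065-30626364, minus strand: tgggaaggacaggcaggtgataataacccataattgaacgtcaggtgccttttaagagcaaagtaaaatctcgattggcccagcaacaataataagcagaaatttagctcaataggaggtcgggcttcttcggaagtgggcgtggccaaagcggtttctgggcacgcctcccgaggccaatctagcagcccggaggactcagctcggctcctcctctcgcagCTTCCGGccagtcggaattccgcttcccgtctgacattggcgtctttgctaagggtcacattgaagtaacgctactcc
Cox6b2, chr7:4753045-4753344, minus strand: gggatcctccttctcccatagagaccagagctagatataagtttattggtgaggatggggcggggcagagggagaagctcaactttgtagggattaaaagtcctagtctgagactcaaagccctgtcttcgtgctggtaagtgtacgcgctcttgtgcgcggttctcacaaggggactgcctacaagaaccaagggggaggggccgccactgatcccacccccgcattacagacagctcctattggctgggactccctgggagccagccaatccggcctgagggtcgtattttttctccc
Motifs long associated with nuclear genes of respiration were searched on both strands in the promoters of the 69 nuclear members that the table held, GCATGCG (NRF1-type), CCGGAAG (ETS-type, the kind GABP binds) and AAGATGG (YY1-type). The first was found in 10 member promoters (14.5%) and in 3.64% of all 27025 promoters, the second in 15 (21.7%) and 9.12%, and the third in 11 (15.9%) and 6.48%. At least one was found in 31 member promoters (44.9%) and in 17.7% of all. The 27025 promoters were not limited to genes expressed here, and the share among other expressed genes was not examined. The last letters of the ETS-type motif can also begin the YY1-type motif, and the NRF1-type motif reads almost the same on both strands. Of the called members with a promoter in the table, Ndufs6 held 1 YY1-type match, and Ndufv3, Cox5a, Cox6b2, Cox7b, Atp5b and Atp5d held none of the 3. Ndufa4l2, Ndufs1, Cox4i2 and Cox6a2 had no entry.

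Succinate dehydrogenase, the complex with no mitochondrial gene, also links the chain to the TCA cycle. Its flavoprotein Sdha had 142, 131 and 142 CPM alone and 158, 156 and 143 CPM with Th17 cells (edgeR log2 fold change 0.14 ± 0.066, adjusted p = 0.126). The iron-sulfur subunit Sdhb had 53, 51.5 and 56.1 and 56.5, 50.6 and 82 CPM (edgeR log2 fold change 0.24 ± 0.16, adjusted p = 0.284), with the high value in cocultured replicate 3. The membrane anchors Sdhc and Sdhd had log2 fold changes of 0.14 (adjusted p = 0.236) and 0.14 (adjusted p = 0.258). Groups overlapped in Sdhb, Sdhc and Sdhd but not in Sdha. Sdha passed the threshold without cocultured replicate 3, with limma, and when libraries were scaled by their total alone.

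The contrast between the genomes was then measured within each library, as the log2 ratio of summed mitochondrial mRNA counts to summed counts of the nuclear members. The nuclear sum held all 88 members, with the 8 that were not subunits, such as Cox7a2l in complex IV. No scaling of the libraries can change this ratio. Over all complexes it was 2.97, 2.79 and 2.80 alone and 3.17, 3.11 and 3.05 with Th17 cells. Means were 2.85 ± 0.103 and 3.11 ± 0.061 (SD, n = 3), a difference of 0.26 or 1.19-fold (exact two-sided permutation test, p = 0.1, the smallest that 3 against 3 libraries allow). Every cocultured library lay above every lone one. For complex I the ratio went from 2.81 ± 0.095 to 3.40 ± 0.050, a difference of 0.58, and for complex III from 2.51 ± 0.085 to 3.13 ± 0.072, a difference of 0.61, both with no overlap (exact permutation p = 0.1 each). Without Ndufa4 and Ndufa4l2 the complex I difference was 0.49, still with no overlap. For complex IV it went from 4.89 ± 0.043 to 4.93 ± 0.180, a difference of 0.05 (exact permutation p = 0.8), and for complex V from 1.08 ± 0.193 to 1.24 ± 0.040, a difference of 0.16 (exact permutation p = 0.4). In complexes IV and V the groups overlapped. For complex IV the lone libraries had 4.93, 4.88 and 4.84 and the cocultured ones 5.12, 4.92 and 4.76. Its small difference thus rests in part on cocultured replicate 3, the lowest of all. The nuclear sums over all complexes and of complex V include Atp5b, whose counts are uncertain. Those over all complexes and of complex IV include Cox4i1, whose counts are also uncertain. Adjusted over these 5 ratios, the exact permutation p of the first 3 was 0.167, so none passed 0.05 at this number of libraries. Without cocultured replicate 3 the overall difference was 0.29.

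**Figure D4:**
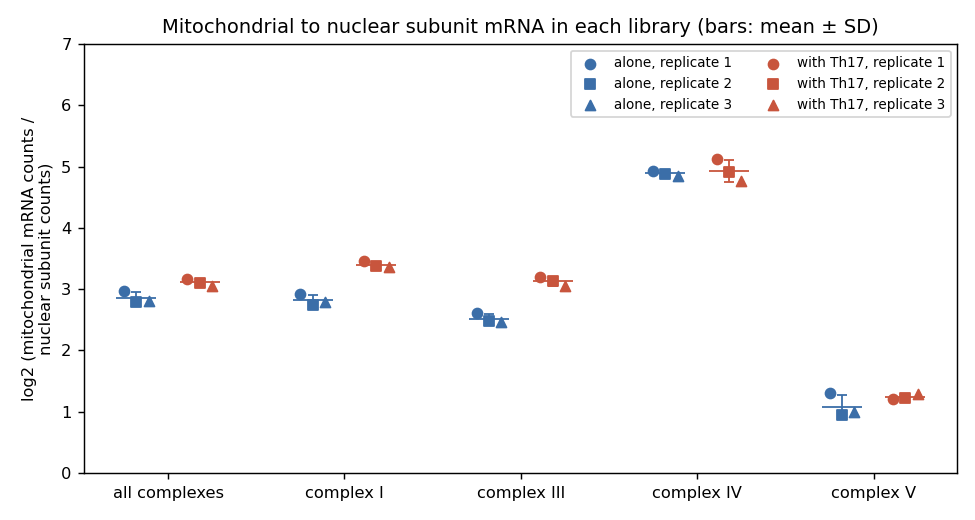
Log2 ratio of mitochondrial mRNA counts to counts of the nuclear members in each library. Values are for all complexes together and for the 4 complexes with genes in both genomes. Bars give the mean ± SD of 3 libraries. The groups are separate for all complexes, complex I and complex III and overlap for complexes IV and V.

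Genes that serve mitochondrial DNA and RNA were examined next, from lists of related genes. Of 33 genes for upkeep, transcription and RNA handling, 7 were higher and 1 was lower (24.2% called against 37.1% of all genes, median log2 fold change 0.02), with 4 to 7 higher and 1 to 2 lower when any 1 library was left out. Pnpt1, which encodes the polynucleotide phosphorylase that degrades RNA in mitochondria, had 166, 156 and 159 CPM alone and 80.8, 78.5 and 85.1 CPM with Th17 cells (edgeR log2 fold change −0.98 ± 0.063, adjusted p = 3.33e-06). Lrpprc, whose product stabilises mitochondrial mRNAs other than that of mt-Nd6, had 63.4, 56.8 and 61.8 and 84.8, 82.5 and 78.3 CPM (edgeR log2 fold change 0.43 ± 0.073, adjusted p = 0.00153). These genes moved in opposite directions, each with separate groups. Mterf2, a member of the mitochondrial termination factor family, had 3.1, 2.92 and 3.3 and 6.47, 4.4 and 5.48 CPM (edgeR log2 fold change 0.81 ± 0.20, adjusted p = 0.0116). Polrmt, the mitochondrial RNA polymerase, had 19.6, 20.6 and 20.8 and 25.9, 28.1 and 22 CPM (edgeR log2 fold change 0.32 ± 0.11, adjusted p = 0.0512) and passed the threshold in 7 of the 16 alternatives. Tfam, which packs the DNA and starts transcription, had 33.7, 36.4 and 37.8 and 30.3, 26.8 and 35.9 CPM (edgeR log2 fold change −0.21 ± 0.12, adjusted p = 0.181), and was called lower without cocultured replicate 3. The remaining genes that rose were Trmt10c and Elac2, which with the RNase P gene listed as 1110008L16Rik cut tRNAs out of the precursors, Tfb2m, a partner of the polymerase, and Peo1, the DNA helicase, with log2 fold changes of 0.55, 0.37, 0.41, 0.39 and 0.44. Of these 5, Trmt10c and Elac2 kept their call in every alternative, and the other 3 lost it in 4 or more.

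Of 15 regulators of mitochondrial biogenesis tested, 3 were higher, 20% against 17.1% of all genes, and 0 lower (0 also at an unadjusted p and with DESeq2 or limma). Ppargc1b, the coactivator PGC-1beta, had 1.78, 1.66 and 1.35 CPM alone and 4.31, 3.53 and 2.74 CPM in coculture (edgeR log2 fold change 1.13 ± 0.26, adjusted p = 0.00748). Its relative Ppargc1a had overlapping groups, at 0.931, 1.5 and 1.52 and 0.669, 1.34 and 1.37 CPM (edgeR log2 fold change −0.23 ± 0.37, adjusted p = 0.669). Nrip1, a corepressor of oxidative genes, and Foxo3, a stress-responsive factor, also rose, by 0.88 and 0.55 on the log2 scale. Nrf1 and Gabpa, whose products bind the first and second motif above, had log2 fold changes of 0.06 (adjusted p = 0.762) and −0.01 (adjusted p = 0.903).

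Among 48 assembly factors of the complexes, 6 were higher and 2 were lower (16.7% called against 37.1% of all genes, median 0.12), with 2 to 4 higher and 1 to 2 lower when any 1 library was left out. Tmem70, needed to build ATP synthase, had 13, 13.5 and 13.4 CPM alone and 32.9, 28.4 and 30.2 CPM with Th17 cells (edgeR log2 fold change 1.20 ± 0.099, adjusted p = 1.71e-05). Bcs1l, which inserts the iron-sulfur protein into complex III, had 10.2, 9.56 and 7.78 and 6.02, 6.44 and 5.78 CPM (edgeR log2 fold change −0.59 ± 0.15, adjusted p = 0.0139), a call lost without lone replicate 1. Groups were separate in both genes. Of 20 electron carriers and coenzyme Q genes, 1 was higher and 2 were lower (15% called, median −0.01), or 1 to 2 higher and 0 to 1 lower with any 1 library left out. Gpd2, the mitochondrial glycerol-3-phosphate dehydrogenase that feeds electrons to coenzyme Q, had 60.8, 64.4 and 63.1 and 95.8, 100.4 and 101 CPM (edgeR log2 fold change 0.66 ± 0.065, adjusted p = 5.27e-05). Pdss1, which starts the coenzyme Q tail, had 11, 9.32 and 11.6 and 7.81, 5.66 and 8.06 CPM (edgeR log2 fold change −0.57 ± 0.17, adjusted p = 0.0283), a call lost without lone replicate 1 or 3 and without cocultured replicate 2. The cytochromes Cycs and Cyc1 had log2 fold changes of −0.07 (adjusted p = 0.821) and 0.12 (adjusted p = 0.307) by edgeR. The names in the rule for members match neither, so the complex III set above and its ratio were without Cyc1.

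The TCA cycle list, which supplies NADH and succinate, held the largest share of changed genes of the 6 lists, with 6 of 19 higher and 1 lower (36.8%, median log2 fold change 0.18), close to the 37.1% of all genes. With any 1 library left out 5 to 10 were higher, 10 without cocultured replicate 3. DESeq2 called 5 higher. Pcx, pyruvate carboxylase, which refills oxaloacetate, had 8.38, 6.79 and 6.42 CPM alone and 21, 23.3 and 22.7 CPM in coculture (edgeR log2 fold change 1.63 ± 0.13, adjusted p = 1.39e-05). Dlat, the acetyltransferase of pyruvate dehydrogenase, had 113, 108 and 106 and 212, 208 and 222 CPM (edgeR log2 fold change 0.97 ± 0.06, adjusted p = 2.49e-06). Both were separate between the groups by wide margins. Ogdh, Dld, Idh3b and Dlst rose by 0.49, 0.39, 0.27 and 0.18. Idh2, the NADP-dependent isocitrate dehydrogenase, fell, with 42.9, 48.9 and 45.1 and 27.3, 31.8 and 31.3 CPM (edgeR log2 fold change −0.60 ± 0.093, adjusted p = 0.000938). Of 77 genes of the mitochondrial ribosome, which translates the 13 mRNAs, 8 were higher and 3 lower (14.3% called against 37.1% of all genes), with a median of 0.06, and without cocultured replicate 3 these counts were 7 and 8 and the median −0.03, in a range of 2 to 8 higher and 1 to 8 lower over all libraries left out. The highest was Mrpl34 (log2 fold change 0.65) and the lowest was Mrpl48 (−0.45).

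**Figure D5:**
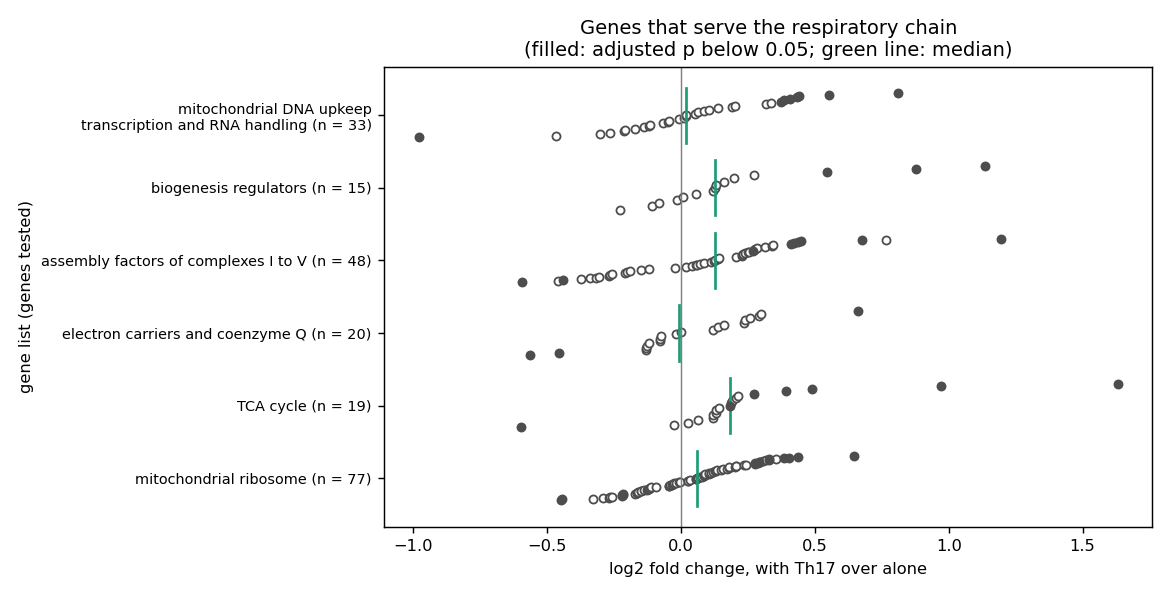
Log2 fold change, with Th17 cells over alone, of the genes tested in 6 related lists, with filled points at an adjusted p below 0.05 and a green line at the median. List medians lie between −0.01 and 0.18, while Pnpt1 is the lowest point and Pcx the highest.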

How the data were processed

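Reads had been filtered (Seqtk), aligned (HISAT2 2.0.4) and assigned to genes (StringTie 1.3.3b) by the authors, who deposited raw counts and FPKM for each gene and library in 1 table. The build mm10 (GRCm38) is named in the submitters' processing notes. Use of strand, poly(A) selection and the treatment of fragments that fit several genes were not given in the sources used here. The authors' deposited FPKM are scaled to gene length and library total and carry no TMM factor. Positions are those of the table, and all 101 members overlap their GENCODE vM21 position.

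Tests used edgeR 4.0.16 in R 4.3.3 (filterByExpr, TMM, glmQLFit and glmQLFTest, Benjamini-Hochberg adjustment over 13088 genes). A call is an adjusted p below 0.05. SE was obtained from the F statistic (log2 fold change over its square root). The 2-fold threshold follows the study's methods. Ratios between genomes were tested by exact two-sided permutation with scipy 1.17.1. Gene length is the length the FPKM values imply. Alternatives were DESeq2 1.42.0, limma 3.58.1 on log2(FPKM + 1), other scalings and filters, a replicate block, leaving out each library and, chosen after seeing the data, a gene length offset in 20 bins, a ratio over nuclear genes under 2000 bases and a complex I ratio without Ndufa4 and Ndufa4l2. Older symbols were matched through RefSeq synonyms, and Fastkd4 and Coa1 were not matched.

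The members, gene lists and tests were chosen with earlier results of these data known. Genes named are all mitochondrial mRNAs, the 6 highest and 6 lowest called nuclear members whose higher group averaged 100 counts or more (5 and 3 met this), fixed isoform, succinate dehydrogenase and regulator genes, and the highest and lowest called gene of each related list; the other called genes of 3 lists and the complex I and marker genes beside them were named after their values were seen.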

Additional observations from a re-analysis of the deposited data

How the results depend on the processing

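The positive median of the mitochondrial mRNAs and the direction of each called member were kept in the 16 alternative fits, except that Cox6a2 was not tested with at least 10 counts in every library. The ratio of mitochondrial to nuclear counts, which no gene-wise fit enters, stayed higher in coculture in its own 16 alternatives. Those that changed the scaling, dropped the filter or added a replicate block could not move it, because it is taken from summed raw counts. Of the 23 called members, 8 of 12 mitochondrial and 6 of 11 nuclear ones kept their call wherever they were tested. Counts of nuclear members called higher changed most, from 5 to 11 with library size only, 12 with limma on log2(FPKM + 1), 9 with the offset for gene length and 1 without genes that overlap another gene, and the lower calls from 6 to 3 in that last set; scaling by library size alone moved the median of all genes from 0.00 to 0.07. When libraries were left out in turn, nuclear members called higher numbered 2 to 7, mitochondrial mRNAs called lower 0 to 1, and the mitochondrial median was 0.32 to 0.49. Genes over 2-fold numbered 1524, and 626 with limma on log2(FPKM + 1), which shrinks low values. Apart from the construction of limma's scale and of the smaller gene set, the cause was not tested. The ratio difference of 0.26 was 0.31 from FPKM sums, 0.46 as a mean over genes and 0.36 over nuclear genes under 2000 bases. Libraries of the same number did not deviate together (correlations of deviations 0.016, −0.026 and −0.0036, with 1 lone library closest to its own number). With 3 libraries a group, this cannot exclude that such libraries shared a culture or an animal. A replicate block gave 4513 called genes in place of 4856, 11 mitochondrial mRNAs higher, and 5 nuclear members higher and 4 lower. The ratio difference was 0.26 as before (exact permutation p = 0.25, the smallest that 3 pairs allow). With 3 libraries a group, the ratio tests cannot pass 0.05, and members near 10 counts were at the limit of what depth allows.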
